A study of Mus musculus with 9 samples.

Results

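The 47 genes described here carry cells through mitosis: they enter it, build the spindle, hold and separate the chromosomes, and divide the cell. They were taken as a named list of mitotic kinases and cyclins, kinetochore, spindle, condensin and cytokinesis genes, with no measured value in the rule, and the FPKM (fragments mapped to a transcript, scaled to its length and to the size of the library) of a gene's transcripts were summed. All 47 were found among 23309 gene symbols in the deposited tables. All 47 also reached a mean of 1 FPKM over the 9 libraries, as did 10497 symbols in all, and these were tested.

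The cells were D2.0R, from a mammary tumour of the mouse, which serve as a model of dormant breast cancer. They were grown in low-glucose DMEM with 2% FBS over a coat of basement membrane extract (BME) with 2% Cultrex for 1 day or 5 days, or over BME mixed with collagen (COL), with Cultrex and COL in the medium, for 5 days. Total RNA of 3 libraries for each of BME day 1, BME day 5 and BME + COL day 5, each lettered a, b and c, was sequenced. BME + COL at day 1 is not analysed here, so on collagen time and matrix cannot be told apart, and all libraries come from this 1 line. The study's methods call the libraries of a group biological replicates, and p-values measure the spread between them, pooled over the 3 groups.

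Cyclin A and cyclin B bind CDK1 to drive entry into mitosis, and the kinases PLK1, Aurora A and Aurora B then mature the spindle poles and correct attachments. Kinetochores join chromosomes to spindle microtubules, and until each is attached the spindle assembly checkpoint restrains CDC20, the activator of the anaphase-promoting complex. Once released, that ubiquitin ligase marks securin and cyclin B for destruction, separase opens cohesin, and the central spindle and contractile ring divide the cell. Most of these genes are transcribed late in the cell cycle, and their RNA is used as a sign of cycling cells.

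The tables held 7.21 to 9.37 gigabases of aligned sequence per library, as recovered from the coverage and exon length of each transcript. BME day 5 replicate b stood apart: it differed from replicates a and c by a median of 0.290 and 0.275 on the log2 scale over tested genes, against 0.0899 between a and c. Its summed FPKM was 287611, against 347339 to 364146 in a and c, its Neat1 level was 225 FPKM against 44.6 to 63.6 in the other 8 libraries, and its histone genes of the replication-dependent kind held 0.0617% of FPKM against 0.0244 to 0.0446% elsewhere. Other libraries had features of their own: BME day 5 replicate a had 7.25% of its FPKM in genes under 300 nt, against 0.440 to 2.12% elsewhere, and Rn45s, a ribosomal RNA precursor, was at 3105 FPKM in BME + COL day 5 replicate c against 102 to 201 elsewhere. The part of these features in the values below was not tested, and results that rest on replicate b are given with and without it. The epithelial genes Krt8 (395 to 1324 FPKM) and Krt18 (362 to 1088 FPKM) were abundant in all libraries, but Krt19, Cldn3, Cldn7 and Krt5 were under 1 FPKM in each, and the sum of the 10 epithelial markers ran from 1463 to 1628 FPKM on BME day 1, 785 to 1170 on BME day 5 and 2364 to 2471 on BME + COL day 5. No library reached 1 FPKM for 9 of 11 haematopoietic, 7 of 8 endothelial and 4 of 4 adipocyte markers. Of 9 fibroblast markers 5 (Col1a2, Col3a1, Dcn, Lum and Thy1) were under 1 FPKM throughout, while the sum of the list ran from 23.4 to 31.6 FPKM on BME day 1, 50.6 to 62.3 on BME day 5 and 4.64 to 4.87 on BME + COL day 5, carried by Postn, Pdgfra, Pdgfrb and Col1a1. The part of either list in the results was not tested.

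To compare cells held on BME with cells given collagen, the 2 day 5 groups were set side by side. All 47 mitotic genes were lower on BME day 5 than on BME + COL day 5, and for each of them all 3 BME libraries lay below all 3 collagen libraries. Levels on collagen were 2.40-fold (Bub3) to 7.94-fold (Cdc20) those on BME, taking group means. The summed FPKM of the 47 genes was 644, 216 and 521 in BME day 5 replicates a, b and c and 2156, 2176 and 2102 on collagen, which was 0.177, 0.0750 and 0.150% of all FPKM against 0.511, 0.521 and 0.497%. Whether fewer cells were in mitosis on BME or each cell held less of these RNAs cannot be told apart in bulk RNA.

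In the limma fit on log2(FPKM + 0.1) over all tested genes, 47 of 47 fell (adjusted p from 9.97e-06 to 0.00243), while 45.3% of all tested genes were called lower and 30.3% higher. Their median log2 change was -2.32 (range -3.13 to -1.27), beside -0.18 over all tested genes. The share of genes whose BME day 5 libraries all lay below the collagen libraries was 48.1% among all tested genes. Replicate b was not needed for the calls: without it 47 of 47 were again lower (44.5% of all tested genes), with a median of -1.82. Rescaling every library to the same total (TPM) moved the median of all tested genes from -0.18 to 0.16 and turned the split of all calls from 4756 lower and 3179 higher to 3327 lower (31.7%) and 4858 higher, but 47 of 47 mitotic genes remained lower, with a median of -1.99. Leaving out genes shorter than 300 nt was combined with rescaling the rest of each library to the same total. The median of all tested genes was then 0.18, near the 0.16 of TPM, and 47 of 47 were lower there too.

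**Figure D1:**
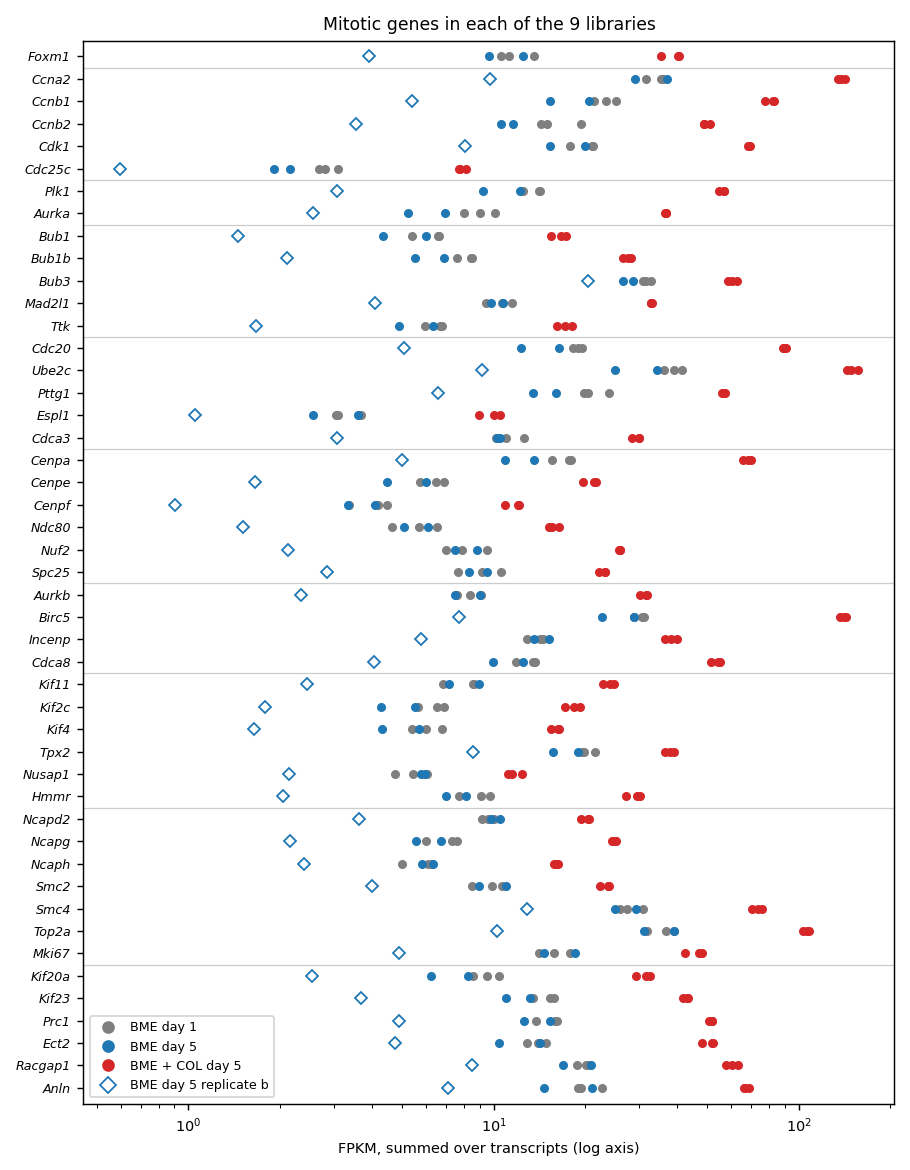
Level of each of the 47 mitotic genes in each of the 9 libraries, in FPKM on a log axis, with grey lines between roles. Each red point (BME + COL day 5) lies to the right of every other point of its gene, and the open diamond, BME day 5 replicate b, is the lowest library for all 47 genes.

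BME day 5 replicate b had the lowest level of all 9 libraries for 47 of 47 genes. It held 20.4 FPKM of Bub3, 73.9% of the mean of replicates a and c, and 0.901 FPKM of Cenpf, 24.3% of that mean, and these were the extremes of the list. With the pseudocount, 46 of 47 mitotic genes but 4.13% of all tested genes were under 50% of that mean, and the medians were 35.7 and 84.3%. Under TPM, Bub3 stood at 91.4% and Cenpf at 30.1% of the mean of a and c. Cdk1, Aurka, Pttg1, Cenpa, Tpx2, Smc4 and Racgap1 were then also above 50%, and the rest of the list stayed under it. Replicates a and c also differed: c was below a for 47 of 47 mitotic genes, at a median of 80.7% of its level, whereas 51.5% of all tested genes were lower in c. The 3 BME libraries at day 5 thus ran from 216 to 644 FPKM in sum, whereas those on collagen lay within 2102 to 2176 FPKM.

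Cell cycle genes of this kind often carry a CHR element (cell cycle genes homology region), bound by the DREAM and MuvB complexes, and CCAAT boxes, bound by NF-Y, close to the start of transcription. Promoter windows of 250 bases before to 50 after the start, from RefSeq on GRCm38.p6, were found for 39 of the 47 genes. The stretches below, 150 bases up to the last base before the start, are those of the 2 anaphase-promoting complex genes with large changes (Cdc20 and Ube2c), of the central kinase gene Cdk1, of the chromosome gene Top2a, and of Bub3, the gene that changed least in the fit of all 9 libraries. They are written 5′ to 3′ in the direction of transcription. Capitals mark TTTGAA or TTCGAA (CHR), CCAAT, and the E2F motifs TTTCGCGC and TTTGGCGC, on either strand (TTCAAA and ATTGG are CHR and CCAAT on the other strand).
Cdc20: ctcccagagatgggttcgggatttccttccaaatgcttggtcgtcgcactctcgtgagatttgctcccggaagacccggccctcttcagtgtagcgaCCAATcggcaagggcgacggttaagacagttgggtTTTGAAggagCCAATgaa
Ube2c: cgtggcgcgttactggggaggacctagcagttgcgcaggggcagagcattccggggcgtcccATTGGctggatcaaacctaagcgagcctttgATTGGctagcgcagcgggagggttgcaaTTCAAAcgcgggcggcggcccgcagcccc
Cdk1: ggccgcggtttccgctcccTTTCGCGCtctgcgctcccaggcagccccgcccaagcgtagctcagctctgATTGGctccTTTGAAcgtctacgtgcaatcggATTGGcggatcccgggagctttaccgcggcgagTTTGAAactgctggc
Top2a: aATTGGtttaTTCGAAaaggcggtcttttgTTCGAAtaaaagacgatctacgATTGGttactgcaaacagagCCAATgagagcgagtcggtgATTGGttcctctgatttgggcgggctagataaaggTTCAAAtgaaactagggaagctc
Bub3: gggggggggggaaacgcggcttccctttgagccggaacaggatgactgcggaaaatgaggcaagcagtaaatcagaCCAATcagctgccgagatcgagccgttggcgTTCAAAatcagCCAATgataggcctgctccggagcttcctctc

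These stretches are chr4:118437344-118437493, minus strand (Cdc20), chr2:164769779-164769928, plus strand (Ube2c), chr10:69352913-69353062, minus strand (Cdk1), chr11:99024190-99024339, minus strand (Top2a) and chr7:131560220-131560369, plus strand (Bub3, the first of its 2 windows), all in GRCm38.p6 and directly upstream of the first exon. In Cdc20 the CHR began 18 bases before the start, between CCAAT boxes at 53 and 8 bases before it. In Ube2c the CHR began 29 bases before the start, and 2 CCAAT boxes lay at 88 and 57 bases. Cdk1 held CHR motifs at 71 and 15 bases and an E2F motif at 131 bases, and was 1 of the 2 genes of the list with an E2F match. In Top2a a TTTGAA on the other strand at 23 bases came after TTCGAA variants at 140 and 120 bases and 4 CCAAT boxes, while in Bub3 a CHR at 43 bases stood between CCAAT boxes at 74 and 32 bases. The layout of CHR and CCAAT was thus present both in the gene with the largest and in the gene with the smallest change of the list in the fit of all 9 libraries.

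Of the 39 genes, 31 (79.5%) held a CHR in the window, against 15.6% of 7838 tested genes and 21.7% of all 27025 genes with a window, and 30 of 39 (76.9%) held TTTGAA itself. CCAAT was found in 30 (76.9%), against 43.4% of tested genes, and 20 (51.3%) had 2 or more against 17.5%. Both motifs stood in 1 window for 28 (71.8%), against 6.76% of tested genes. E2F motifs were seen in 2 (5.13%), against 2.05% of tested genes, while 10 of 33 DNA replication genes (30.3%) had one and 7 (21.2%) had a CHR. Among the matches 1 overlapped another motif. The 8 genes with a window but neither TTTGAA nor TTCGAA were Birc5, Ccnb1, Cenpe, Mad2l1, Ncaph, Nuf2, Nusap1 and Pttg1. Other forms of the CHR were not searched, so these genes may hold one. Their median log2 change on BME day 5 against BME + COL day 5 was -2.31, beside -2.35 for the 31 with a match. Among the other mitotic genes described below, the 43 with a CHR had a median of -1.87, and 95.3% were called lower. The 51 without had a median of -1.03, and 74.5% were called lower. DNA replication genes went the other way, at -1.55 for 7 with a CHR and -1.68 for 26 without. Outside the mitotic and replication lists, 45.5% of 1144 tested genes with a CHR and 44.7% of 6528 without were called lower. The part of the CHR in these changes was not tested. These letters describe the windows, and binding was not measured.

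**Figure D2:**
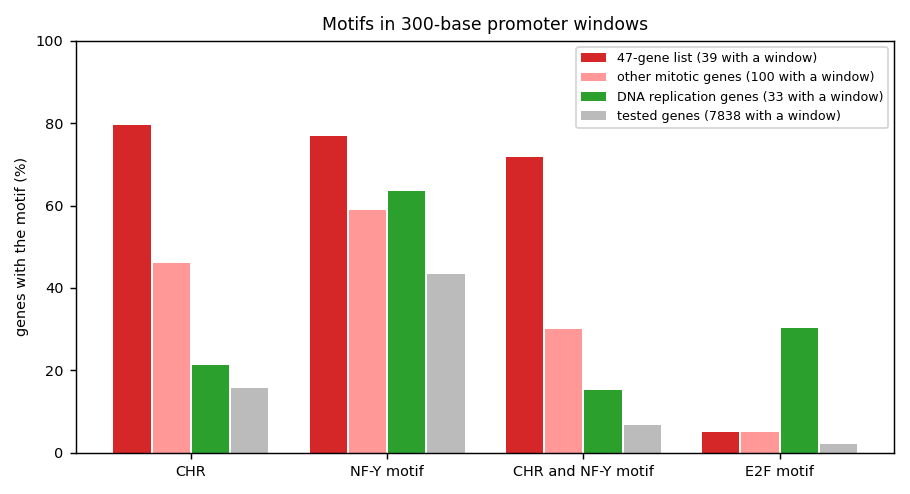
Percent of genes with a CHR, a CCAAT box (NF-Y motif), both, or an E2F motif in the 300-base promoter window, for the 47-gene list, other mitotic genes, DNA replication genes and all tested genes that have a window. CHR was found in 79.5% of the 47-gene list and 15.6% of tested genes, and E2F motifs were most frequent (30.3%) among replication genes.

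Among regulators of mitotic entry, Foxm1, which encodes a forkhead factor that activates genes of this group with the MuvB complex, measured 11.3, 13.5 and 10.6 FPKM on BME day 1, 12.5, 3.90 and 9.65 on BME day 5 and 40.4, 40.2 and 35.4 on BME + COL day 5 (replicates a, b and c in each case). The collagen libraries were the highest, and those of BME day 5 overlapped with day 1. Its log2 change on BME day 5 against collagen was -2.29 ± 0.34 (SE), adjusted p = 0.000209.

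Cyclins and their kinase fell together, 5 of 5. Ccna2, which encodes cyclin A2, held 138, 142 and 134 FPKM on collagen and 36.9, 9.76 and 29 on BME day 5, with replicate b far under a and c. Ccnb1, the main mitotic cyclin gene, had 21.4, 23.4 and 25.2 FPKM on BME day 1, 20.5, 5.41 and 15.3 on BME day 5 and 77.5, 83.2 and 82.2 on collagen. For Ccnb2, a second B-type cyclin, the values were 14.3, 15 and 19.4 FPKM on BME day 1, 11.5, 3.54 and 10.6 on BME day 5 and 49, 49 and 51.3 on collagen. In both cyclin B genes the BME day 5 libraries were all below day 1, and day 1 was all below collagen. Cdk1, the kinase these cyclins activate, had 19.9, 8.04 and 15.3 FPKM on BME day 5 and 68.4, 68.9 and 69.4 on collagen. Cdc25c, the gene of a phosphatase that removes the inhibitory phosphates from CDK1, was the lowest of the list, with 2.81, 3.09 and 2.68 FPKM on BME day 1, 2.15, 0.598 and 1.91 on BME day 5 and 7.71, 7.77 and 8.14 on collagen. Log2 changes against collagen were -2.75 ± 0.39 (Ccnb1), -2.70 ± 0.37 (Ccnb2), -2.65 ± 0.39 (Ccna2), -2.44 ± 0.36 (Cdc25c) and -2.35 ± 0.26 (Cdk1), each ± SE.

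The 2 kinase genes of spindle maturation both fell. Plk1, whose product drives centrosome maturation and mitotic exit, measured 12.5, 14.1 and 14.2 FPKM on BME day 1, 12.3, 3.06 and 9.25 on BME day 5 and 56.8, 57 and 55 on collagen. Aurka, the gene of the spindle pole kinase Aurora A, measured 7.99, 9.03 and 10.1 FPKM on BME day 1, 6.92, 2.56 and 5.23 on BME day 5 and 36.8, 36.7 and 36.6 on collagen. No library of BME day 5 reached a BME day 1 library in either gene. The log2 changes against collagen were -2.98 ± 0.40 (SE, adjusted p = 0.000104) for Plk1 and -2.99 ± 0.29 (adjusted p = 1.26e-05) for Aurka. Without replicate b they were -2.39 ± 0.11 for Plk1 and -2.59 ± 0.12 for Aurka.

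All 5 checkpoint genes fell, but by unequal amounts. Bub1b (BUBR1, part of the mitotic checkpoint complex) held 6.89, 2.10 and 5.52 FPKM on BME day 5 and 27.6, 28.3 and 26.6 on collagen, a log2 change of -2.64 ± 0.34. Bub1, a kinetochore kinase gene, held 5.99, 1.45 and 4.35 FPKM on BME day 5 and 16.6, 17.2 and 15.4 on collagen, and Ttk, the gene of the checkpoint kinase MPS1, 6.33, 1.67 and 4.91 FPKM on BME day 5 and 17.2, 18 and 16.2 on collagen. Mad2l1, the MAD2 gene, had 10.7, 4.08 and 9.82 FPKM on BME day 5 and 33.2, 32.8 and 32.7 on collagen. Those 4 changed by 2.11 to 2.64 log2 units downward. Bub3, the gene of the adaptor shared by BUB1 and BUBR1, lies at chr7:138703905-138715412 in mm9 and had 30.8, 31.7 and 32.8 FPKM on BME day 1, 28.6, 20.4 and 26.6 on BME day 5 and 60.3, 58.6 and 62.6 on collagen. It was the least changed of the 47, with a log2 change of -1.27 ± 0.12 (95% confidence interval -1.54 to -1.01). Cdc20, the most changed, had an interval of -3.89 to -2.38, and the difference between these 2 extremes of the list was not tested. Without replicate b Bub3 was at -1.13 ± 0.05, while Ncapd2 (-0.98 ± 0.06) and Nusap1 (-0.98 ± 0.10) changed less.

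The group around the anaphase-promoting complex held the largest fall of the list. Cdc20, the activator gene whose promoter is printed above, lies at chr4:118105506-118109948 in mm9 and measured 18.2, 18.9 and 19.5 FPKM on BME day 1, 16.4, 5.08 and 12.3 on BME day 5 and 88.6, 90.6 and 89.5 on collagen. The 3 groups did not overlap, with collagen highest and BME day 5 lowest, and the log2 change against collagen was -3.13 ± 0.34 (SE, adjusted p = 2.53e-05), or -2.65 ± 0.10 without replicate b, the largest of the 47 in both fits. Ube2c, which encodes the E2 enzyme that primes substrates of the complex, was the most abundant of the list on collagen at 148, 156 and 144 FPKM, with 36.1, 38.9 and 41.4 on BME day 1 and 34.3, 9.19 and 25.1 on BME day 5. Pttg1, the securin gene, held 19.7, 20.4 and 23.9 FPKM on BME day 1, 16.1, 6.57 and 13.4 on BME day 5 and 56.5, 57.3 and 56.2 on collagen. As with Cdc20, each of these 2 genes was ordered collagen, day 1, day 5 without overlap. Espl1, the gene of separase, had 3.60, 1.05 and 2.57 FPKM on BME day 5 and 10.01, 10.5 and 8.98 on collagen. Cdca3, which encodes a trigger of mitotic entry, had 10.5, 3.07 and 10.3 FPKM on BME day 5 and 30.1, 28.5 and 29.9 on collagen, with replicates a and c on BME nearly level and both within the day 1 range.

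Centromere and kinetochore genes fell 6 of 6. Cenpa, encoding the histone H3 variant that marks centromeres, measured 15.5, 17.6 and 17.9 FPKM on BME day 1, 13.5, 5.01 and 10.9 on BME day 5 and 69.7, 65.6 and 68.4 on collagen, a log2 change of -2.89 ± 0.29 against collagen. Cenpe, a kinetochore motor gene, had 6.02, 1.65 and 4.49 FPKM on BME day 5 and 21.7, 21.3 and 19.7 on collagen, and Cenpf, a large kinetochore-associated protein gene, 4.08, 0.901 and 3.34 FPKM on BME day 5 and 12.1, 12 and 10.9 on collagen. In the NDC80 complex, the main microtubule coupler of the kinetochore, Ndc80 held 6.10, 1.51 and 5.09 FPKM on BME day 5 and 16.3, 15.2 and 15.5 on collagen. Nuf2 held 8.80, 2.12 and 7.50 FPKM on BME day 5 and 26.1, 26 and 25.8 on collagen, and Spc25 9.53, 2.84 and 8.31 FPKM on BME day 5 and 23.2, 22.2 and 23.2 on collagen. For the 3 NDC80 genes, replicates a and c on BME day 5 lay within the day 1 range and only replicate b lay under it.

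The chromosomal passenger complex consists of the kinase Aurora B, survivin, borealin and the scaffold INCENP, and corrects faulty attachments before it moves to the midzone. Birc5 (survivin) measured 28.9, 31.2 and 30.6 FPKM on BME day 1, 29, 7.70 and 22.7 on BME day 5 and 141, 137 and 142 on collagen, and its log2 change of -3.02 ± 0.39 against collagen was the second largest of the list. Without replicate b it was -2.44 ± 0.09, behind Cdc20, Aurka and Cenpa. Cdca8 (borealin) measured 12.5, 4.06 and 9.94 FPKM on BME day 5 and 55.2, 54.4 and 51.8 on collagen. Aurkb measured 9.06, 2.34 and 7.48 FPKM on BME day 5 and 31.7, 31.7 and 30.3 on collagen. Incenp moved less, with 12.9, 14.5 and 14.3 FPKM on BME day 1, 15.2, 5.77 and 13.5 on BME day 5 and 38, 39.8 and 36.5 on collagen, a log2 change of -1.84 ± 0.29. Of the 2 Birc5 transcripts in the tables the 972-nt NM_009689 took 93.5 to 97.2% of the gene's FPKM in each library, so the change was mostly in that transcript.

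Spindle motors and microtubule proteins fell 6 of 6. Kif11, the gene of the motor EG5 that pushes spindle poles apart, had 8.97, 2.45 and 7.15 FPKM on BME day 5 and 24.2, 24.7 and 22.9 on collagen. Kif2c, which encodes a microtubule depolymerase at centromeres, had 5.52, 1.78 and 4.27 FPKM on BME day 5 and 18.3, 19.2 and 17.2 on collagen, and Kif4, a chromosome-bound kinesin gene, 5.68, 1.64 and 4.30 FPKM on BME day 5 and 16.3, 16.3 and 15.4 on collagen. Hmmr, the gene of a spindle-associated hyaluronan-binding protein, had 8.16, 2.04 and 6.97 FPKM on BME day 5 and 29.6, 30.3 and 27.2 on collagen. These 4 changed by 2.12 to 2.54 log2 units downward. Tpx2, an activator of Aurora A on the spindle, had 19.5, 21.5 and 19.8 FPKM on BME day 1, 18.9, 8.56 and 15.6 on BME day 5 and 37.8, 39 and 36.6 on collagen, and Nusap1, a microtubule-bundling protein gene, had 4.76, 5.44 and 6.03 FPKM on BME day 1, 5.96, 2.13 and 5.78 on BME day 5 and 12.4, 11.5 and 11.2 on collagen. Both were near the lower end of the list, with log2 changes of -1.46 ± 0.23 and -1.45 ± 0.32 (adjusted p = 0.00243). Tpx2 FPKM was spread over 5 transcripts of similar length (4161 to 4365 nt), so their division is uncertain.

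Condensin and chromosome structure genes fell 7 of 7 with a median log2 change of -1.82, the nearest to 0 of the roles. Top2a, the topoisomerase II alpha gene that frees intertwined sister chromatids, measured 31.8, 39.1 and 36.8 FPKM on BME day 1, 39.1, 10.3 and 31 on BME day 5 and 107, 108 and 103 on collagen. Mki67, the gene of the proliferation marker Ki-67 that coats mitotic chromosomes, measured 14.1, 17.9 and 15.8 FPKM on BME day 1, 18.5, 4.88 and 14.6 on BME day 5 and 47.3, 48.3 and 42.3 on collagen. In both genes replicate a on BME day 5 was slightly above all day 1 libraries and replicate b far below them. Condensin I, the ring complex that compacts chromosome arms, is built on the ATPases SMC2 and SMC4. Smc2 measured 11, 3.99 and 8.98 FPKM on BME day 5 and 23.8, 23.7 and 22.3 on collagen, and Smc4 measured 29.3, 12.9 and 25 FPKM on BME day 5 and 75.8, 73.6 and 70.1 on collagen. Of its other subunits, Ncapd2 held 10.5, 3.63 and 9.78 FPKM on BME day 5 and 20.5, 20.4 and 19.3 on collagen. Ncapg held 6.72, 2.15 and 5.57 FPKM on BME day 5 and 25, 25.1 and 24.5 on collagen, and Ncaph, the kleisin gene that closes the ring, 6.35, 2.40 and 5.81 FPKM on BME day 5 and 16.3, 16 and 15.8 on collagen. Ncapg changed most of the 5 (-2.49 ± 0.33 on the log2 scale, SE) and Ncapd2 least (-1.47 ± 0.32, adjusted p = 0.00239).

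Genes of the central spindle and of cytokinesis fell 6 of 6. Kif20a, the gene of a midzone kinesin, measured 8.56, 9.54 and 10.4 FPKM on BME day 1, 8.25, 2.53 and 6.24 on BME day 5 and 31.6, 32.6 and 29.4 on collagen. Centralspindlin is made of a kinesin and a RhoGAP: the kinesin gene Kif23 measured 13.2, 3.68 and 11 FPKM on BME day 5 and 43.3, 43 and 41.8 on collagen, and Racgap1 measured 20.9, 8.49 and 16.9 FPKM on BME day 5 and 60.7, 63.2 and 58 on collagen. Prc1, which encodes the bundler of midzone microtubules, had 15.3, 4.91 and 12.6 FPKM on BME day 5 and 50.7, 52.1 and 51.9 on collagen. Ect2, the activator of RhoA at the equator, had 14.2, 4.75 and 10.4 FPKM on BME day 5 and 51.9, 52.3 and 48.1 on collagen, and Anln (anillin, a scaffold of the contractile ring) 21.1, 7.08 and 14.6 FPKM on BME day 5 and 66.6, 68.8 and 66.1 on collagen. Their log2 changes ranged from -2.59 (Kif20a) to -2.06 (Racgap1), and all 6 were lowest in replicate b. Of the Ect2 transcripts, NM_001177625 took 33.3, 53.3 and 37.6% of the gene's FPKM in BME day 5 replicates a, b and c, above the 12.3 to 30.3% on BME day 1 and the 18.4 to 26.6% on collagen. The Ect2 transcripts are of similar length (3986 to 4079 nt), so their division is uncertain as well.

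**Figure D3:**
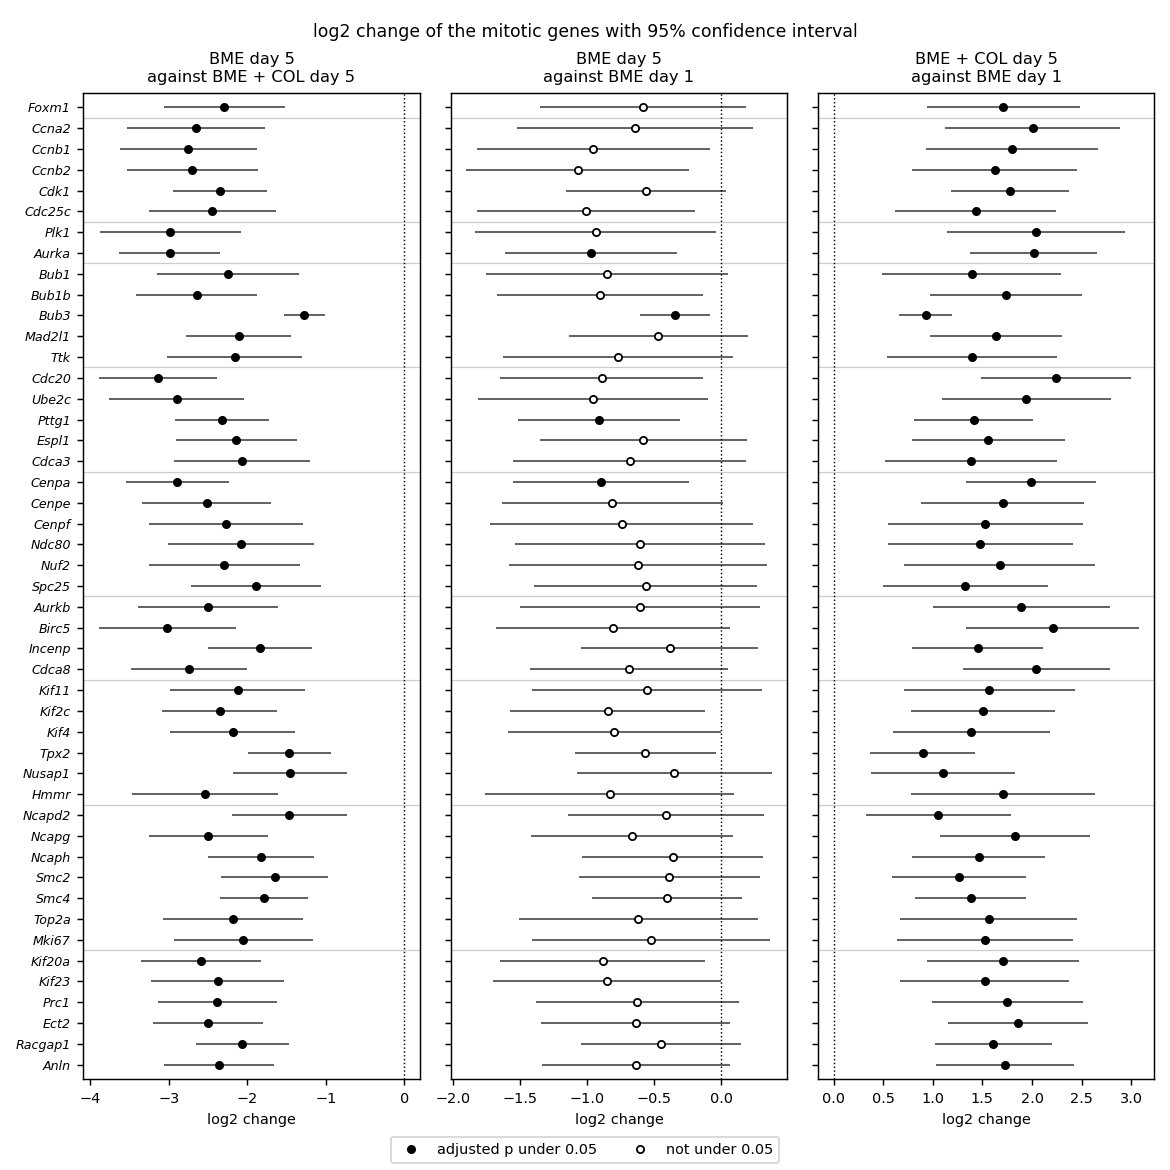
Log2 change of each mitotic gene with its 95% confidence interval in the 3 comparisons (limma fit over all 9 libraries, filled points with an adjusted p under 0.05). All 47 intervals lie below 0 for BME day 5 against BME + COL day 5 and above 0 for BME + COL day 5 against BME day 1, while 4 points are filled for BME day 5 against BME day 1.

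A ratio of 2 genes within a library does not depend on how that library was scaled, so subunits of the same complex were compared in this way. Ncapg over Smc2 was 0.711, 0.685 and 0.767 on BME day 1, 0.611, 0.540 and 0.620 on BME day 5, and 1.05, 1.06 and 1.10 on collagen. Birc5 over Incenp was 2.24, 2.15 and 2.15 on BME day 1, 1.91, 1.34 and 1.68 on BME day 5, and 3.69, 3.44 and 3.90 on collagen. Cdc20 over Bub3 was 0.590, 0.596 and 0.593 on BME day 1, 0.574, 0.249 and 0.463 on BME day 5, and 1.47, 1.55 and 1.43 on collagen. In these 3 ratios the groups did not overlap and the order was collagen, day 1, day 5, also when replicate b is set aside. Cdca8 over Incenp followed that order too (0.917 to 0.948, 0.705 to 0.826 and 1.37 to 1.45 for BME day 1, BME day 5 and collagen). Bub1b over Bub3 did as well (0.246 to 0.267, 0.103 to 0.241 and 0.425 to 0.483). Aurkb over Incenp was 0.797 to 0.834 on collagen, above 0.406 to 0.639 in all BME libraries, and Nuf2 over Ndc80 was 1.59 to 1.71 on collagen, above all BME libraries. In other pairs collagen was lowest: Spc25 over Ndc80 was 1.42 to 1.49 on collagen and 1.56 to 1.88 in the BME libraries, and Ncapd2 over Smc2 was 0.860 to 0.864 on collagen and 0.909 to 1.09 in the BME libraries. Mad2l1 over Bub3 was 0.374, 0.200 and 0.369 on BME day 5, with replicates a and c above the 0.306 to 0.364 of BME day 1, and 0.523 to 0.559 on collagen. Smc4 over Smc2 was 2.78 to 3.07 on BME day 1, 2.67, 3.24 and 2.78 on BME day 5 and 3.10 to 3.18 on collagen, so that replicate b alone of the BME libraries was above collagen. Kif23 over Racgap1 was 0.680 to 0.721 on collagen, 0.713 to 0.772 on BME day 1 and 0.631, 0.434 and 0.651 on BME day 5, so that on collagen it was not above day 1. With 3 libraries against 3 an exact permutation test cannot go below p = 0.10, and the ratios are given as a description.

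**Figure D4:**
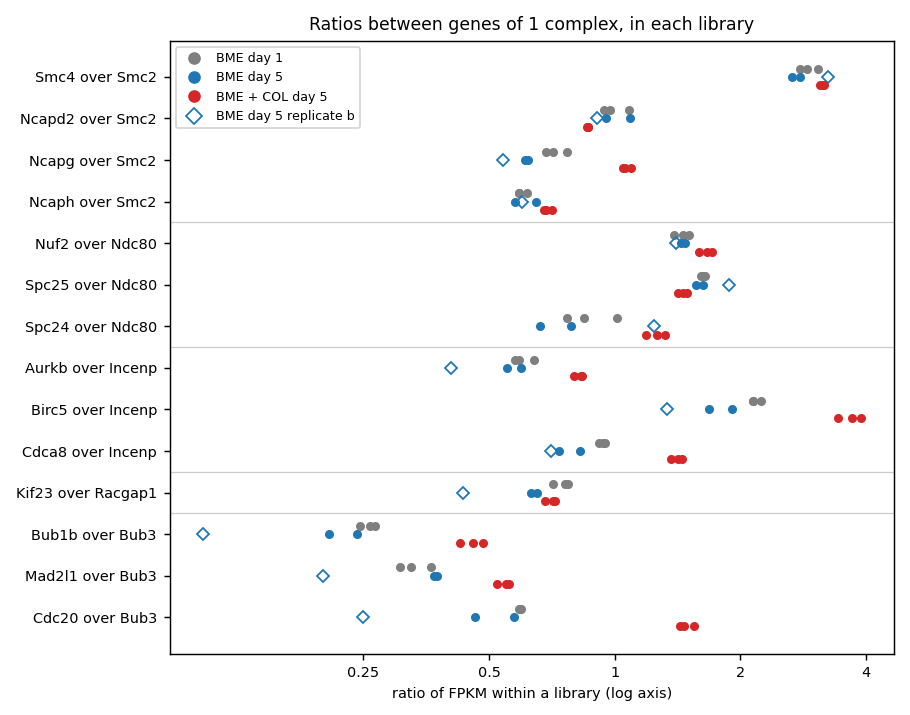
Ratio of FPKM between 2 genes of 1 complex in each of the 9 libraries, on a log axis. Ncapg over Smc2, Birc5 over Incenp, Cdca8 over Incenp, Bub1b over Bub3 and Cdc20 over Bub3 separate the 3 groups, while Smc4 over Smc2 spans 2.67 to 3.24, with replicate b the highest, and Spc25 over Ndc80 and Ncapd2 over Smc2 are lowest on collagen.

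To follow cells on BME over time, BME day 5 was compared with BME day 1. With all 9 libraries 4 of 47 genes fell and 0 rose, beside 22.2% of all tested genes called lower and 9.09% higher: the limma fit called Aurka (-0.97 ± 0.29, adjusted p = 0.0315), Pttg1 (-0.91 ± 0.27, 0.0316), Cenpa (-0.90 ± 0.29, 0.0434) and Bub3 (-0.35 ± 0.12, 0.0493), as log2 change ± SE and adjusted p. The estimate was negative for all 47, with a median of -0.64 beside -0.15 over all tested genes, and the other 43 did not pass the test. At an unadjusted p under 0.05, limma had 16 lower and 0 higher. Under TPM 7 of 47 were called lower, and the calls over all tested genes went from 2327 lower and 954 higher to 2236 lower and 1534 higher. For 15 genes all BME day 5 libraries lay below all BME day 1 libraries (37.1% of all tested genes did so). These were Ccnb1, Ccnb2, Cdc25c, Plk1, Aurka, Bub1b, Bub3, Cdc20, Ube2c, Pttg1, Cenpa, Kif2c, Tpx2, Kif20a and Kif23.

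This comparison turned on single libraries. Without BME day 5 replicate b the fit called 14 genes lower (25.0% of all tested genes), with a median over the 47 of -0.19, and without replicate a it called 30 lower (30.9% of all tested genes), with a median of -0.99. Without replicate c it called 3, and leaving out any 1 of the 3 BME day 1 or the 3 collagen libraries left 0 of 47 called, with 5 to 12 lower at an unadjusted p under 0.05. The share of all tested genes called was not taken for these fits. Whether their counts differ from that share is therefore not known. The collagen libraries enter this comparison only through the spread, which the fit estimates over all 3 groups. Without any 1 of them the median log2 change over all tested genes stayed at -0.15. The 14 called without replicate b were Aurka (-0.57 ± 0.12), Ccnb2 (-0.53 ± 0.12), Pttg1 (-0.53 ± 0.10), Cenpa (-0.48 ± 0.10), Cdc25c (-0.48 ± 0.09), Cdc20 (-0.40 ± 0.10), Ube2c (-0.40 ± 0.12), Bub1b (-0.40 ± 0.09), Kif20a (-0.40 ± 0.12), Ccnb1 (-0.39 ± 0.12), Kif2c (-0.38 ± 0.12), Plk1 (-0.35 ± 0.11), Kif23 (-0.29 ± 0.09) and Bub3 (-0.20 ± 0.05), as log2 change ± SE. The 14 of 47 were near the 25.0% of all tested genes called lower, so their roles are listed only as a description. Of these 14, 5 belong to the cyclin and kinase groups (Ccnb1, Ccnb2, Cdc25c, Plk1 and Aurka) and 3 to the anaphase-promoting complex group (Cdc20, Ube2c and Pttg1). None came from condensin and chromosome structure: without replicate b Mki67 was at 0.05 (95% confidence interval -0.23 to 0.33), Top2a at -0.04 (-0.29 to 0.21), Smc2 at 0.05 (-0.21 to 0.30) and Ncapd2 at 0.07 (-0.07 to 0.21). The NDC80 genes were near 0 as well, with Ndc80 at 0.00 (-0.31 to 0.31), and so were Ccna2 at -0.06 (-0.29 to 0.16) and Aurkb at -0.02 (-0.24 to 0.20). The difference between the genes called and those not called was not itself tested.

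Replicate by replicate, BME day 5 replicate a lay within the range of the 3 day 1 libraries for 23 of 47 genes, below it for 15 and above it for 9. Of all 10497 tested genes, replicate a lay within it for 3223, below it for 4727 and above it for 2547. Replicate c lay within it for 12 of 47 and below it for 35, beside 2685 within, 5000 below and 2812 above among all tested genes. Replicate b lay below it for all 47, and its count over all tested genes was not taken. Taking Ccna2 as an example, day 1 measured 31.5, 35.8 and 35.5 FPKM and day 5 36.9, 9.76 and 29 FPKM, so that a was above, b far below and c below the day 1 range.

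**Figure D5:**
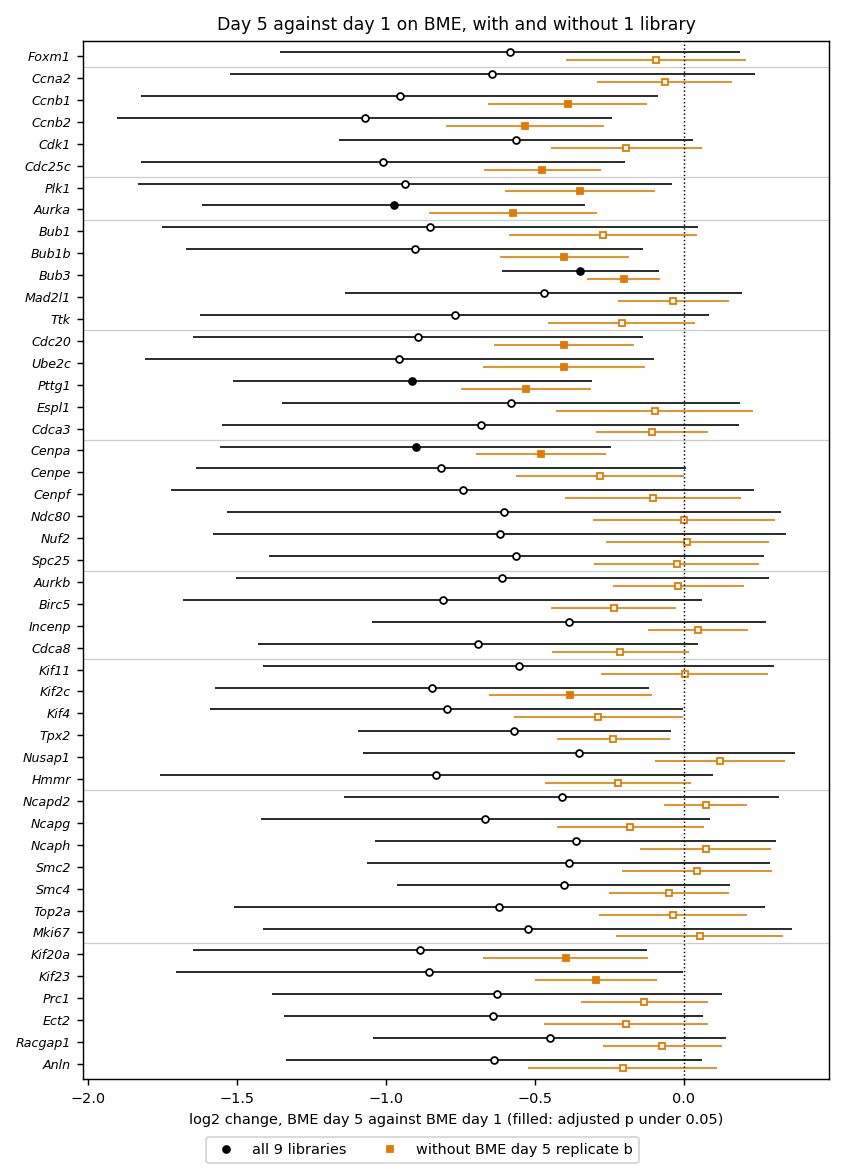
Log2 change of each mitotic gene on BME day 5 against BME day 1 with its 95% confidence interval, from all 9 libraries (black) and without BME day 5 replicate b (orange), filled where the adjusted p is under 0.05. With all libraries 4 genes are filled, and without replicate b 14 are filled although most estimates lie nearer to 0.

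BME + COL day 5 was also compared with BME day 1, which differ both in matrix and in time. All 47 genes were higher on collagen in the fit (adjusted p from 0.000115 to 0.0168), while 34.2% of all tested genes were called higher and 31.8% lower, and for all 47 every collagen library lay above every day 1 library (41.6% of all tested genes). The median log2 change was 1.61, beside 0.03 over all tested genes. Under TPM the median over all tested genes was -0.19, with 2638 called higher and 4870 lower, and 47 of 47 mitotic genes were again higher, with a median of 1.39. Cdc20 again changed most (2.24 ± 0.34, SE), followed by Birc5 (2.21 ± 0.39), Cdca8 (2.04 ± 0.33) and Plk1 (2.04 ± 0.40). The SE and p-values rest on a spread pooled over all 3 groups, so BME day 5 replicate b enters them although it is in neither group. Tpx2 (0.90 ± 0.23), Bub3 (0.93 ± 0.12) and Ncapd2 (1.05 ± 0.32) changed least. On group means the collagen level was 1.86-fold (Tpx2) to 4.75-fold (Cdc20) that of BME day 1. The 3 comparisons share libraries pairwise and are not independent.

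Other genes of mitosis were taken from a list of 137 symbols, of which 127 were in the tables and 126 were tested. On BME day 5 against BME + COL day 5, 107 fell, 4 rose and 15 did not pass the test, with a median log2 change of -1.44. Of all tested genes 45.3% were called lower and 30.3% higher, and the counts by role stand beside these shares. Of 30 centromere and kinetochore genes 29 fell, among them Spc24, the fourth NDC80 subunit gene (4.04, 1.87 and 4.01 FPKM on BME day 5, 19.4, 19.2 and 20.5 on collagen, -2.62 ± 0.24), and Knstrn, a kinetochore adaptor gene (-2.57 ± 0.31). Of 8 checkpoint genes 7 fell, among them Spdl1 (-2.78 ± 0.29), which encodes the dynein recruiter Spindly, and Trip13 (-2.75 ± 0.38), the gene of the ATPase that disassembles the checkpoint complex. Of 20 regulators of entry 17 fell, among them Mybl2 (6.91, 1.93 and 5.07 FPKM on BME day 5, 28.6, 28.8 and 28.8 on collagen, -2.78 ± 0.36), the gene of B-MYB, which joins MuvB and precedes FOXM1 at these promoters, and the centrosome kinase gene Nek2 (-2.56 ± 0.35). Spindle motors and microtubule proteins fell in 21 of 24, among them Troap (-2.60 ± 0.30) and Kif14 (-2.45 ± 0.43), and cytokinesis genes in 10 of 12, among them Cep55 (-2.27 ± 0.34), which recruits the abscission machinery, and Depdc1b (-2.23 ± 0.39).

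The median was nearer to 0 in 2 roles. The 15 genes of the anaphase-promoting complex list had a median of -0.38, and 10 of them fell, beside 45.3% of all tested genes. Among the 10 were Fbxo5 (-2.19 ± 0.27), the gene of the inhibitor EMI1, and Ube2s (-1.93 ± 0.20), the gene of the chain-elongating E2 of the complex. Condensin II, cohesin and chromosome structure genes had a median of -0.80 and 13 of 17 fell, among them Cdca2 (-1.98 ± 0.32) and Cdca5 (-1.90 ± 0.31), which encodes the cohesin protector sororin. The 4 that rose were Arhgef2 (36.2, 32.3 and 35.1 FPKM on BME day 5, 22, 22.7 and 21.3 on collagen, 0.65 ± 0.08), a microtubule-bound RhoA activator gene, Kif3a (0.48 ± 0.07), a motor of intraflagellar transport, Numa1 (0.21 ± 0.09, adjusted p = 0.0498), and Lin52 (0.34 ± 0.13, adjusted p = 0.0387), a MuvB subunit gene, which was not called without BME day 5 replicate b (0.26). These 4 of 126 stood beside 30.3% of all tested genes called higher, and they have roles outside mitosis too. Under TPM 15 of the 126 were called higher and 102 lower, the latter beside 31.7% of all tested genes. Over time on BME 5 of 126 fell (22.2% of all tested genes did) and 1 (Lin52) rose (9.09% of all tested genes did), with a median of -0.39. Leaving out BME day 5 replicate a made 49 lower (30.9% of all tested genes), and leaving out replicate b 16 (25.0%). On collagen against BME day 1, 96 rose and 4 fell, beside 34.2 and 31.8% of all tested genes, with a median of 1.05.

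DNA replication genes, which act in S phase before mitosis, fell in 42 of 42 on BME day 5 against BME + COL day 5, beside 45.3% of all tested genes. Their median log2 change was -1.66, with an adjusted p of up to 0.0490 in the limma fit. With time on BME 4 of 42 fell (median -0.45), a smaller share than the 22.2% of all tested genes called lower. On collagen 40 of 42 were higher than on BME day 1 (median 1.29), beside 34.2% of all tested genes. In BME day 5 replicate b they stood at a median of 48.3% of the mean of replicates a and c, the other mitotic genes at 56.1% and the 47 genes at 35.7%. The gap between replicate b and the other 2 libraries was therefore widest for the 47 genes, though these lists were chosen with earlier results known and the difference was not tested.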

How the data were processed

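D2.0R cells were sequenced with Illumina reads in 9 libraries, 3 for each of 3 groups taken from the sample labels. Per the submitters' processing notes, reads were trimmed with Trimmomatic 0.30 and aligned with TopHat2 2.0.8 to mm9 (NCBIM37). The authors deposited 1 transcript file per library, written by Cufflinks, with an FPKM, its interval and its coverage for every transcript. FPKM were summed over the 30563 transcripts of 23309 gene symbols. They are not counts, so no count model was used. The deposited intervals spanned a median of 8.85% of the value to either side under 5 FPKM and 2.92% above 20 FPKM, and cover counting error only.

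limma 3.58.1 (R 4.3.3, two-sided, with an intensity trend) was fitted to log2(FPKM + 0.1) of the 10497 genes that averaged 1 FPKM or more, with 3 group means over all 9 libraries and Benjamini-Hochberg adjustment within each comparison. Genes were called at an adjusted p under 0.05. Fold changes on this scale understate the changes of low genes. The 47 genes, the other lists and the tests were chosen with earlier results of these data known. All 47 genes are named, and of the other mitotic genes up to 2 called rises and 2 called falls per role with the largest change against collagen. Motifs were searched in RefSeq promoters (GRCm38.p6), whereas gene levels refer to mm9. Alternatives in pseudocount, filter, scaling, transcript, trend, block and left-out libraries were tried. Files were read with Python 3.11.15 (pandas 2.3.3, numpy 2.4.6) and drawn with matplotlib 3.10.9.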

Additional observations from a re-analysis of the deposited data

How the results depend on the processing

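Calls of all 47 mitotic genes on BME day 5 against BME + COL day 5 held under each of 21 alternatives, or for 46 of the 46 genes left at a mean of 5 FPKM. On BME + COL day 5 against BME day 1 they held for 47, apart from that filter (46 of 46) and from leaving out BME + COL day 5 replicate b (46 of 47). The median of the latter comparison was 1.39 under TPM and 1.40 without genes shorter than 300 nt, against 1.61. The setting without short genes also rescaled each library to the same total. BME day 5 against BME day 1 was the comparison that moved: the count lower was 4, but 0 with no filter on low values, 0 with only the 6 libraries of the comparison, 2 with no intensity trend and 7 under TPM, and 0 to 30 when 1 library was left out. Over all alternatives limma had 5 to 43 lower and 0 higher at an unadjusted p under 0.05. Among the alternatives, the share of all tested genes called was taken only under TPM and without BME day 5 replicate a or b. The letters a, b and c did not pair the libraries (same-letter correlations from -0.23 to 0.10). With the replicate letter as a block 4 members were lower on BME day 5 against BME day 1, and 47 were called in each other comparison.

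Among other mitotic genes, those higher on BME day 5 than on collagen numbered 4, but 2 with no filter, 15 under TPM, 13 with median-ratio scaling, 10 with quantile normalization and 15 without short genes. Leaving out 1 library gave 2 to 8, the 8 without BME day 5 replicate b. Those lower over time on BME numbered 5, but 3 with no filter, 12 under TPM, 12 with quantile normalization and 1 with the 6 libraries alone, and 2 to 49 with 1 library left out, the 49 without BME day 5 replicate a. Those higher over time numbered 1, but 0 at a mean of 5 FPKM, 3 under TPM, 3 with median-ratio scaling, 6 with quantile normalization, 4 without short genes and 0 with the 6 libraries, and 0 to 4 with 1 left out. Those lower on collagen than on BME day 1 numbered 4, but 13 under TPM, 7 with median-ratio scaling, 9 with quantile normalization, 13 without short genes and 7 with the 6 libraries, and 4 to 7 with 1 left out. The cause of these shifts was not tested. Depth limits the lowest genes most: deposited intervals reached a median of 8.85% of the value to either side under 5 FPKM.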
